A study of Mus musculus with 2 samples.

Results

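The dual-specificity phosphatases Dusp4, Dusp5 and Dusp6, the Sprouty genes Spry1, Spry2 and Spry4, the Ets factors Etv1, Etv4 and Etv5, and the cyclin gene Ccnd1 were read in single cells from optic nerves of Nf1-OPG mice. These 10 genes were taken by symbol from the 32285 genes counted, as transcriptional outputs of RAS-ERK signalling, and each symbol matched 1 gene. No measured value chose them, although earlier results of these data were known when the list was made.

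Nf1-OPG mice (Nf1 flox/mut; GFAP-Cre, on C57BL/6) carry a germline mutant and a floxed Nf1 allele in every cell, and Cre is driven by GFAP, so that cells of the GFAP lineage can lose the floxed allele as well. All cells of both libraries share this genotype, and no library of wild-type or Nf1+/- nerves was analysed here. The droplet libraries C-ON and FMC_new were each made from nerves of 10 pooled mice at 12 weeks of age, with myelin removed on beads. The title of C-ON also carries the word control, and what it refers to is not known here. Whether the libraries came from separate cages, days or operators is not given. The p-values below rest on how class differences vary between these 2 libraries, with that spread borrowed across genes. In all, 8834 cells of C-ON and 16818 of FMC_new were kept, with medians of 6810.5 and 4676 unique molecular identifiers (UMIs, each marking a single captured transcript) per cell, and 188 of their barcodes occurred in both libraries. Cells were clustered without the 10 genes, and 29 of 37 clusters were named from marker genes. Besides nerve cells they held T cell-like, plasma cell-like and, mostly in FMC_new, pituitary endocrine cell-like cells (1656 in FMC_new and 19 in C-ON), and pituitary cells are no part of the nerve.

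RAS-ERK signalling passes from growth factor receptors through RAF and MEK to the ERK kinases. Neurofibromin, the protein of Nf1, turns RAS off. Active ERK raises the transcription of its own brakes, among them nuclear and cytoplasmic phosphatases of the DUSP family, which strip phosphate from ERK, and Sprouty proteins, which act upstream. ERK also raises the Ets factors of the Pea3 group, Etv1, Etv4 and Etv5, and cyclin D1, which drives entry into the cell cycle. In the oligodendrocyte lineage, growth factor signalling through PDGFRA and FGF receptors is known to use this cascade in progenitor cells.

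Glioma-like, oligodendrocyte-like and astrocyte-like cells carry the comparison. The glioma-like class held 216 cells of C-ON and 1428 of FMC_new, in cluster 9, led by Pdgfra, C1ql1, Cspg5 and Vcan, and cluster 20, led by Gpr17, Bcan, Neu4 and Tnr. These markers also define normal oligodendrocyte progenitors, so the class cannot be split here into neoplastic and normal progenitor cells. The oligodendrocyte-like class held 5339 and 2065 cells. The astrocyte-like class held 19 cells of C-ON and 211 of FMC_new, and its C-ON sum had only 65654 UMIs. It was a single cluster, led by Scn7a, Agt, Cldn10 and Col25a1, and all 8 astrocyte markers counted for it. At a clustering resolution of 0.4 in place of 0.8, the class held 121 cells of FMC_new. The fibroblast-like class of FMC_new then held 593 cells, against 503 before. Whether all astrocyte-like cells were optic nerve astrocytes was not tested. Each level is in CPM, that is, UMIs per 1000000 UMIs summed over a class in a library, with exact Poisson 95% intervals that cover counting error only. Levels were not compared between genes, because CPM is not scaled to transcript length.

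Nf1 itself, the targeted gene, stood at 123 CPM in C-ON and 93.7 CPM in FMC_new in glioma-like cells, against 65.2 and 58.1 CPM in oligodendrocyte-like cells. These tags are read near the 5′ end of transcripts and whether they reach the deleted part is not given, so the Nf1 level does not check recombination.

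Across the classes with at least 20 cells, 5 of the 10 genes (Spry1, Spry4, Etv4, Etv5 and Ccnd1) had their highest level in glioma-like cells in both libraries. Of 11501 genes that reached 20 CPM in a class of each library, 642 (5.58%) did so. The other 5 genes were highest elsewhere: Etv1 in oligodendrocyte-like cells, Spry2 in NK cell-like cells, Dusp5 in migratory dendritic cell-like cells, Dusp6 in microglia-like cells, and Dusp4 in plasma cell-like cells of C-ON and neuron-like cells of FMC_new.

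**Figure D1:**
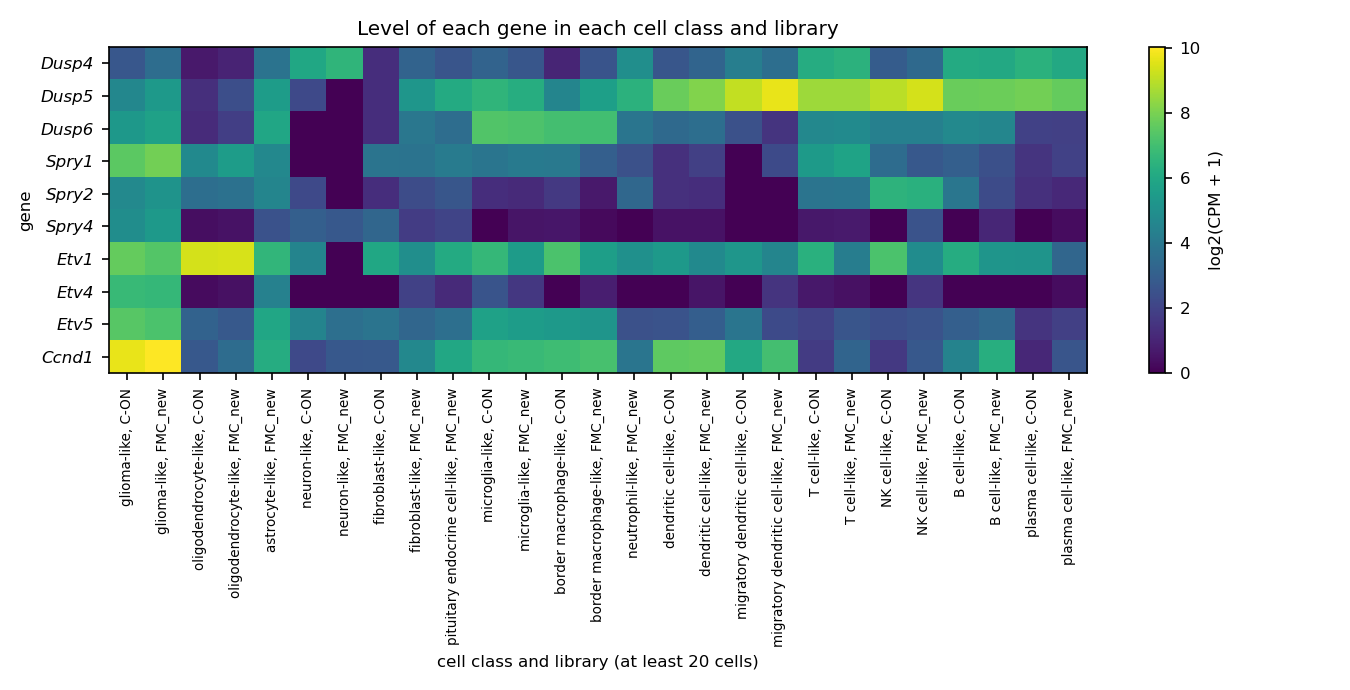
Level of the 10 genes (rows) in each named cell class and library with at least 20 cells (columns), as log2(CPM + 1) on the colour scale. Etv4 and Spry4 stand out almost alone in the first pair of columns (glioma-like, 106 and 100 CPM for Etv4), whereas Dusp5 is bright in lymphoid and dendritic columns and Etv1 in the oligodendrocyte-like pair.

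The first comparison asked whether these genes differ between glioma-like and oligodendrocyte-like cells. Of the 10 genes, 9 were higher in glioma-like cells and 1, Etv1, was lower (edgeR quasi-likelihood test on the 4 class sums with library as a block, adjusted p under 0.05 over all genes). Among the 14982 genes tested, 31.6% were higher and 29.0% lower, so calls were common in this comparison. The median log2 change was 3.54 over the 10 genes and -0.01 over all genes tested. The glioma-like class also carried 7870 CPM of the 10 oligodendrocyte markers in C-ON and 3445 CPM in FMC_new, all 10 of them detected, against 65589 and 58324 CPM in oligodendrocyte-like cells. Its 12 own markers summed to 13649 and 11713 CPM, against 106 and 146 CPM in oligodendrocyte-like cells. The calls were the same without cells that held a Mog or Mag UMI (9 higher and 1 lower). All kept cells were also gated by markers alone, whatever their cluster. A cell needed at least 3 markers of its own class. It also held fewer than 2 of each other list among glioma, oligodendrocyte, astrocyte, T cell and microglia markers. This took 10 glioma-like cells in C-ON, with only 45726 UMIs in sum, and 274 in FMC_new. It took 5126 and 2643 oligodendrocyte-like cells, in FMC_new more than the 2065 of the named class. Markers of other immune classes and of pituitary cells were not in the gate, so such cells with oligodendrocyte RNA could enter. Under the gate 5 of the 10 calls were lost, and the part of these limits in that was not tested. Over all genes, 1434 were then higher and 1564 lower of 14082 tested, against 4734 and 4342 of 14982 without the gate. Under this gate Spry4 (4.30), Etv4 (5.25), Etv5 (2.54) and Ccnd1 (2.72) were higher and Etv1 (-3.62) lower on the log2 scale. The values without a call were 0.57 for Spry1, 0.59 for Dusp6, 0.70 for Dusp4, -0.020 for Dusp5 and -0.91 for Spry2, with edgeR adjusted p from 0.611 to 0.989.

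The second comparison set glioma-like against astrocyte-like cells. Of the 10 genes, 5 were higher in glioma-like cells (Spry1, Spry4, Etv4, Etv5 and Ccnd1) and none was lower, by the same edgeR test. Among 11236 genes tested, 7.35% were higher and 8.09% lower. No gene of the 10 was lower at an unadjusted p under 0.05 in edgeR (0 genes) or in DESeq2 (0 genes). The 5 genes without a call (Dusp4, Dusp5, Dusp6, Spry2 and Etv1) changed by between -0.16 and 0.66 on the log2 scale with SEs of 0.47 to 0.65. In counts simulated from these sums, 67.3% of genes changed by 2 log2 units were called, so smaller changes could be missed. The median was 1.12 over the 10 genes and 0.06 over all genes tested. Both comparisons use the same glioma-like sums, so their calls are not independent of each other. In C-ON the astrocyte-like sum held more oligodendrocyte markers (30402 CPM) than astrocyte markers (5895 CPM), and in FMC_new 3533 against 5306 CPM. The part of this oligodendrocyte RNA in the values was not tested.

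**Figure D2:**
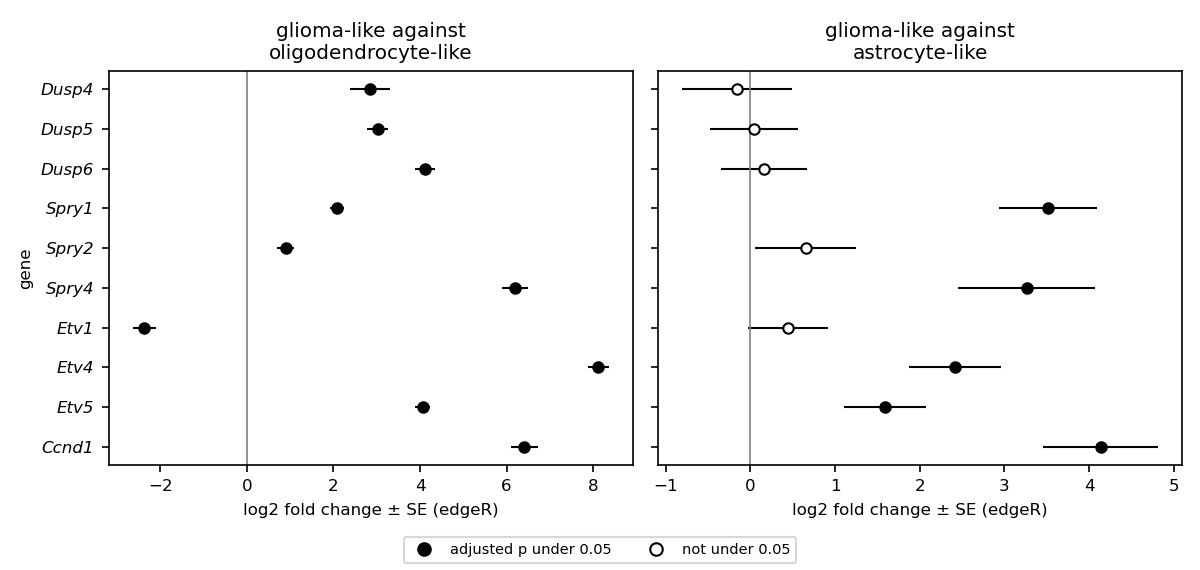
Log2 fold change with its standard error (edgeR, n = 2 libraries) of each gene in glioma-like against oligodendrocyte-like cells (left) and glioma-like against astrocyte-like cells (right), filled where the adjusted p was under 0.05. On the left only Etv1 lies below 0 (-2.37), and on the right the filled points are Spry1, Spry4, Etv4, Etv5 and Ccnd1.

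The Sprouty proteins are feedback inhibitors of receptor tyrosine kinase signalling. Spry1 (ENSMUSG00000037211, GRCm38 chromosome 3, 37639947 to 37644598, plus strand) was found at 178 CPM (interval 156 to 203) in glioma-like cells of C-ON and 234 CPM (224 to 245) in those of FMC_new. Oligodendrocyte-like cells held 26.0 and 45.8 CPM, so glioma-like cells were 6.86-fold and 5.12-fold higher, and the libraries of the classes did not overlap. The log2 change was 2.09 (SE 0.17, edgeR adjusted p = 7e-07), and 0.57 without a call under the marker gate. In astrocyte-like cells Spry1 had no UMI in C-ON, where 3 counts would give 45.7 CPM, and 24.8 CPM (15.3 to 37.9) in FMC_new. Against these, glioma-like cells were at least 3.91-fold higher in C-ON, with a floor of 3 counts in the library, and 9.46-fold higher in FMC_new (log2 change 3.52, SE 0.58, edgeR adjusted p = 3.82e-08). After glioma-like cells, the next class in both libraries was T cell-like, at 42.8 and 55.8 CPM. An unassigned gene model on the other strand, Gm42922, overlaps exons of Spry1 but was not among the genes counted.

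Spry4 was rare outside the glioma-like class. It stood at 29.5 CPM (20.8 to 40.6) in glioma-like cells of C-ON and 42.3 CPM (37.9 to 47.1) in those of FMC_new, against 0.28 and 0.41 CPM in oligodendrocyte-like cells, from 13 and 7 UMIs. The difference was 104-fold in C-ON and 103-fold in FMC_new, or 6.19 on the log2 scale (SE 0.30, edgeR adjusted p = 8.67e-09). Against astrocyte-like cells, which had no UMI in C-ON and 4 UMIs (4.72 CPM) in FMC_new, the log2 change was 3.27 (SE 0.81, edgeR adjusted p = 0.000713). The C-ON part of that comparison carries no information on Spry4, since the astrocyte-like floor of 45.7 CPM lies above the glioma-like level. Of all cells with a Spry4 UMI, 29 of 55 in C-ON (52.7%, exact Clopper-Pearson interval 38.8 to 66.3%) and 260 of 367 in FMC_new (70.8%, 65.9 to 75.4%) were glioma-like. Spry4 lies on the minus strand of GRCm38 chromosome 18, from 38586247 to 38601415 (ENSMUSG00000024427).

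Spry2 (ENSMUSG00000022114, chromosome 14, 105891947 to 105896819, minus strand) behaved unlike the other Sprouty genes. Its level in glioma-like cells was 25.5 CPM (17.4 to 35.99) in C-ON and 34.3 CPM (30.4 to 38.7) in FMC_new, second to NK cell-like cells at 88.5 and 80.8 CPM. Oligodendrocyte-like cells held 11.4 and 12.4 CPM. The log2 change was 0.89 (SE 0.19, edgeR adjusted p = 0.00178), the smallest of the 10 in this comparison, and it lost its call in a single fit over all classes (0.70, edgeR adjusted p = 0.0611). Under the marker gate the call was lost as well and the direction turned (-0.91, edgeR adjusted p = 0.617). Against astrocyte-like cells, with 1 UMI in C-ON and 22.4 CPM in FMC_new, Spry2 changed by 0.66 (SE 0.59, edgeR adjusted p = 0.61).

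**Figure D3:**
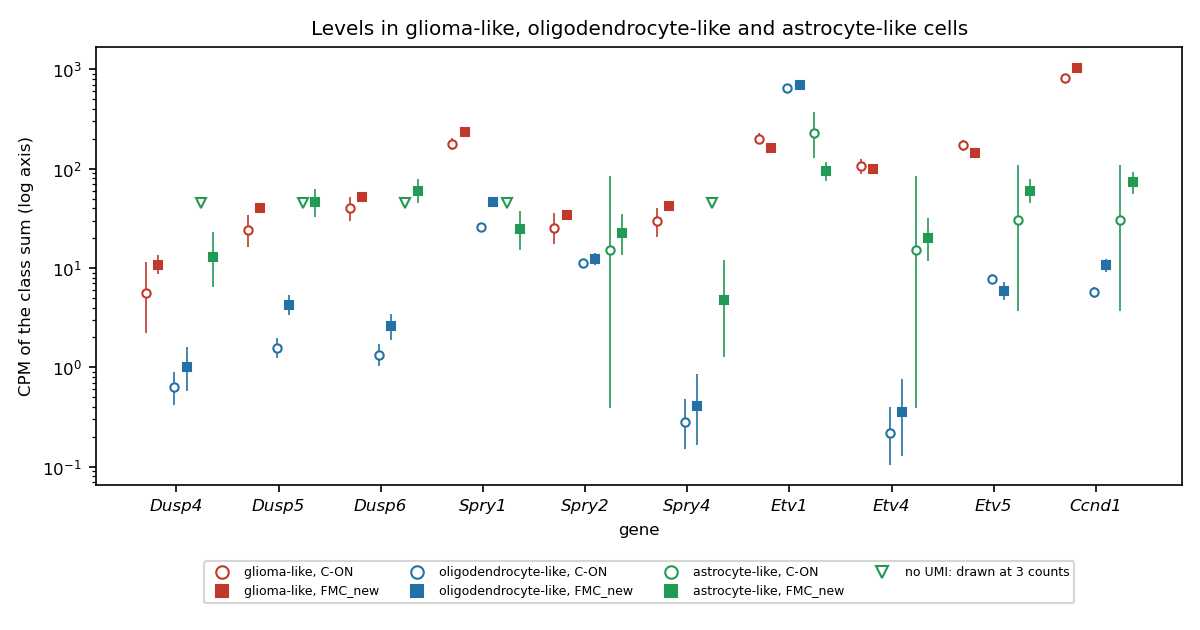
Level of each gene as CPM of the class sum (log axis) in glioma-like, oligodendrocyte-like and astrocyte-like cells, open for C-ON and filled for FMC_new, with exact Poisson 95% intervals. Open triangles mark classes without a UMI, drawn at the level of 3 counts (45.7 CPM), and the Etv1 points are the only ones where the oligodendrocyte-like class (656 and 690 CPM) lies on top.

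The Pea3 Ets factors bind DNA through a shared Ets domain and carry ERK signals to their target genes, and they split here. Etv4 (ENSMUSG00000017724, chromosome 11, 101769742 to 101785371, minus strand) was at 106 CPM (88.7 to 126) in glioma-like cells of C-ON and 100.1 CPM (93.3 to 107) in those of FMC_new. In oligodendrocyte-like cells 10 UMIs gave 0.22 CPM in C-ON and 6 UMIs gave 0.35 CPM in FMC_new. The log2 change was 8.12 (SE 0.25, edgeR adjusted p = 6.34e-10), the largest of the 10 genes in that comparison. Astrocyte-like cells held 15.2 CPM from 1 UMI in C-ON and 20.1 CPM (11.7 to 32.1) in FMC_new, and glioma-like cells lay above them by 2.42 on the log2 scale (SE 0.54, edgeR adjusted p = 0.000128). Of the cells with an Etv4 UMI, 84 of 107 in C-ON (78.5%, 69.5 to 85.9%) and 528 of 616 in FMC_new (85.7%, 82.7 to 88.4%) were glioma-like. In 8 of the 12 classes of C-ON no Etv4 UMI was found.

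Etv5 (ENSMUSG00000013089, chromosome 16, 22381309 to 22439719, minus strand) was at 172 CPM (150 to 197) in glioma-like cells of C-ON and 145 CPM (136 to 153) in those of FMC_new. Oligodendrocyte-like cells had 7.79 and 5.88 CPM, a 22.1-fold and 24.6-fold difference (log2 change 4.06, SE 0.17, edgeR adjusted p = 2.58e-09). Microglia-like cells held 52.2 and 45.4 CPM and border macrophage-like cells 41.5 and 36.2 CPM. Etv5 was thus not limited to the glioma-like, oligodendrocyte-like and astrocyte-like classes. Against astrocyte-like cells, at 30.5 CPM from 2 UMIs in C-ON and 60.2 CPM in FMC_new, the log2 change was 1.59 (SE 0.49, edgeR adjusted p = 0.00959). This call was lost without the library block (adjusted p = 0.0748) and without cells holding a Mog or Mag UMI (adjusted p = 0.193), with changes of 1.59 and 1.82.

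Etv1 (ENSMUSG00000004151, chromosome 12, 38779380 to 38870484, plus strand) ran the other way. Oligodendrocyte-like cells held 656 CPM (649 to 664) in C-ON and 690 CPM (678 to 703) in FMC_new, and a UMI was found in 94.6% and 93.7% of them. Glioma-like cells held 202 CPM (177 to 228) and 162 CPM (154 to 172). The level fell by 2.37 on the log2 scale in glioma-like against oligodendrocyte-like cells (SE 0.26, edgeR adjusted p = 1.01e-05), with no overlap between libraries of the classes. Against astrocyte-like cells, at 228 and 94.4 CPM, it changed by 0.44 (SE 0.47, edgeR adjusted p = 0.686). Among the oligodendrocyte-like clusters Etv1 ranged from 465 to 757 CPM in C-ON and from 608 to 823 CPM in FMC_new, lowest in both in cluster 1, which was led by the interferon-response genes Gm4841 and Iigp1.

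Low Etv1 levels in immune cells moved with oligodendrocyte RNA. NK cell-like cells had 145 CPM of Etv1 in C-ON and 28.2 CPM in FMC_new, and T cell-like cells 81.6 and 18.2 CPM. The myelin gene Mog, which lymphocytes do not make, stood at 421 and 49.6 CPM in the same NK cell-like cells, and at 258 and 17.6 CPM in the T cell-like cells. Its part in the Etv1 levels was not tested. In glioma-like cells Mog stood at 225 CPM in C-ON and 78.2 CPM in FMC_new, against 2068 and 1681 CPM in oligodendrocyte-like cells.

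Upstream sequence is shown for 4 genes with different class patterns, to let their start regions be read side by side: Spry1 and Etv5 (highest in glioma-like cells), Etv1 (oligodendrocyte-like) and Dusp5 (lymphoid and dendritic). RefSeq windows on GRCm38.p6 matched 6 of the 10 genes. For each start the part of the 250 bases upstream that lies outside exons of protein-coding genes is given, 5′ to 3′ on the strand of the gene, and where a gene had several starts the one with the longest such part was taken.
Spry1, chr3:37639697-37639946, plus strand: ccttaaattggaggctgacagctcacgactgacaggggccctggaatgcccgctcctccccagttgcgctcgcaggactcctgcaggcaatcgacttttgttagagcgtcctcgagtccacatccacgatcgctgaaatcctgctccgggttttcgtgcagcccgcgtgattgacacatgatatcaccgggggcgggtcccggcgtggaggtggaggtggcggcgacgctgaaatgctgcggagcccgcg
Etv5, chr16:22438369-22438618, minus strand: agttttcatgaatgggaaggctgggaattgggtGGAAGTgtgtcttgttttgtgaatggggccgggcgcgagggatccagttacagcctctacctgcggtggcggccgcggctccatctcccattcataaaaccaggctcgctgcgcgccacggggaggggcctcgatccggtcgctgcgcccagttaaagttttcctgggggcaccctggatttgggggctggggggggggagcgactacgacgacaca
Etv1, chr12:38779832-38780081, plus strand: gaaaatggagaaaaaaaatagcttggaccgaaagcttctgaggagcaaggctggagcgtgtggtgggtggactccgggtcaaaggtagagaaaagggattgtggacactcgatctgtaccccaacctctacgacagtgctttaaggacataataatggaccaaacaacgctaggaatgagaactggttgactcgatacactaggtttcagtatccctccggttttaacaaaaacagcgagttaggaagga
Dusp5, chr19:53528895-53529108, plus strand: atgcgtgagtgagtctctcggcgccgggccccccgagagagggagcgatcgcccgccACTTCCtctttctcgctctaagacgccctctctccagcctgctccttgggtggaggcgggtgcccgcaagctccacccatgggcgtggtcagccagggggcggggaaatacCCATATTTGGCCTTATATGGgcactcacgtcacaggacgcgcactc
Capitals mark matches, on either strand, to an Ets motif (GGAAGT), an AP-1 motif (TGANTCA), a CRE (TGACGTCA) or the serum response factor CArG box. The printed windows of Etv5 and Etv1 belong to starts inside the gene spans given above. The window of Etv5 holds an Ets match. The window of Dusp5 holds an Ets match, read here on the other strand, and a pair of adjacent CArG boxes, while the windows of Spry1 and Etv1 hold none of the 4 motifs. Windows read but not printed (Dusp6, Spry2 and the other starts of Etv5 and Etv1) hold none either. Of 32851 such windows of 250 bases in the table, 19.7% hold the Ets motif, 6.75% the AP-1 motif, 1.55% the CRE and 1.47% a CArG box. These are matches of letters, not binding sites.

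Ccnd1 (ENSMUSG00000070348, chromosome 7, 144929931 to 144939925, minus strand), the gene of cyclin D1, was at 817 CPM (768 to 869) in glioma-like cells of C-ON and 1038 CPM (1016 to 1061) in those of FMC_new. Oligodendrocyte-like cells had 5.68 and 10.6 CPM, so glioma-like cells were 144-fold and 97.5-fold higher (log2 change 6.41, SE 0.31, edgeR adjusted p = 9.93e-09). Astrocyte-like cells had 30.5 CPM from 2 UMIs in C-ON and 73.2 CPM (56.1 to 93.8) in FMC_new (log2 change 4.14, SE 0.68, edgeR adjusted p = 3.7e-08). The next class was dendritic cell-like, at 186 and 192 CPM. An exon of Ccnd1 overlaps the gene LTO1 on the other strand, and whether counting used strand is not given in the sources used here, but LTO1 stood at only 19.9 and 11.6 CPM in glioma-like cells. Ccnd1 was found in 72.7% of glioma-like cells in C-ON and 73.3% in FMC_new.

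The phosphatases remove phosphate from ERK and related kinases, Dusp6 in the cytoplasm, Dusp4 and Dusp5 in the nucleus. Dusp6 (ENSMUSG00000019960, chromosome 10, 99263231 to 99267489, plus strand) was at 39.8 CPM (29.6 to 52.5) in glioma-like cells of C-ON and 52.4 CPM (47.5 to 57.7) in those of FMC_new. Oligodendrocyte-like cells had 1.35 and 2.59 CPM (log2 change 4.11, SE 0.22, edgeR adjusted p = 2.39e-08). The marker gate lowered this to 0.59 and ended the call (edgeR adjusted p = 0.785). Microglia-like cells were higher still, at 156 and 147 CPM, followed by border macrophage-like cells at 130 and 125 CPM, with overlapping intervals of these classes in C-ON but not in FMC_new. Astrocyte-like cells had no Dusp6 UMI in C-ON and 60.2 CPM (44.8 to 79.2) in FMC_new, and the log2 change of glioma-like cells was 0.16 (SE 0.50, edgeR adjusted p = 0.922). In C-ON the astrocyte-like floor of 3 counts (45.7 CPM) lay above the glioma-like level, so that library carries no information on this difference. In FMC_new the intervals of the glioma-like and astrocyte-like levels overlapped.

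Dusp5 (ENSMUSG00000034765, chromosome 19, 53529109 to 53542431, plus strand) was led by immune classes. Migratory dendritic cell-like cells held 556 CPM in C-ON and 813 CPM in FMC_new, NK cell-like cells 512 and 656 CPM, and T cell-like cells 373 and 376 CPM. The intervals of the first pair overlapped in C-ON and not in FMC_new. Glioma-like cells held 23.9 CPM (16.1 to 34.1) and 40.2 CPM (35.9 to 44.8), against 1.58 and 4.30 CPM in oligodendrocyte-like cells (log2 change 3.02, SE 0.25, edgeR adjusted p = 7.04e-07). Under the marker gate the change was -0.020 and not called (edgeR adjusted p = 0.989). Astrocyte-like cells had no UMI in C-ON and 46.0 CPM in FMC_new (log2 change 0.04, SE 0.52, edgeR adjusted p = 0.98). The C-ON floor of 45.7 CPM again lay above the glioma-like level, so C-ON carries no information here. An antisense gene, Gm50394 in the files, overlaps its exons and stood at 2.39 and 1.52 CPM in glioma-like cells.

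Dusp4 (ENSMUSG00000031530, chromosome 8, 34807297 to 34819894, plus strand) had few UMIs in glioma-like cells, 7 in C-ON (5.58 CPM, 2.24 to 11.5) and 86 in FMC_new (10.9 CPM, 8.69 to 13.4). Oligodendrocyte-like cells had 0.63 and 1.00 CPM (log2 change 2.85, SE 0.46, edgeR adjusted p = 0.000217), and the change under the marker gate was 0.70 with no call (edgeR adjusted p = 0.695). Lymphoid classes were higher: T cell-like cells held 72.9 and 85.6 CPM, B cell-like cells 68.4 and 65.0 CPM and plasma cell-like cells 83.8 and 64.4 CPM. Neuron-like cells, only 35 and 20 in number, held 61.7 and 92.5 CPM, and their intervals (35.9 to 98.8 and 52.9 to 150.3) reached over the levels of those lymphoid classes, so no order among them can be given. Against astrocyte-like cells the log2 change was -0.16 (SE 0.65, edgeR adjusted p = 0.941). Those of C-ON had no Dusp4 UMI, and their floor of 45.7 CPM lay above the glioma-like level, so C-ON carries no information here.

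Shares of cells with a UMI depend on depth, so each cell was thinned to 1000 UMIs. This left out 612 shallower cells, 4 of them glioma-like in C-ON and 78 in FMC_new. In FMC_new the glioma-like cells left out were all of cluster 20, which kept 470 of 548, while cluster 9 kept its 880. Cluster 20 had lower levels of Ccnd1, Spry1, Etv4 and Etv5 (below), so the thinned shares lean toward cluster 9. Ccnd1 was then found in 44.3% of glioma-like cells in C-ON and 49.0% in FMC_new, against 0.45% and 1.08% of oligodendrocyte-like and 0.35% and 1.01% of T cell-like cells. Spry1 was found in 14.6% and 18.4% of glioma-like cells, against 2.74% and 3.93% of oligodendrocyte-like and 3.14% and 5.03% of T cell-like cells. Etv4 was found in 12.7% and 8.96% of glioma-like cells, against 0.04% and 0% of oligodendrocyte-like cells. Etv5 stood at 16.98% and 14.0%, against 0.54% and 0.79%. Thinning thus left the same 5 genes highest in the glioma-like class in both libraries.

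**Figure D4:**
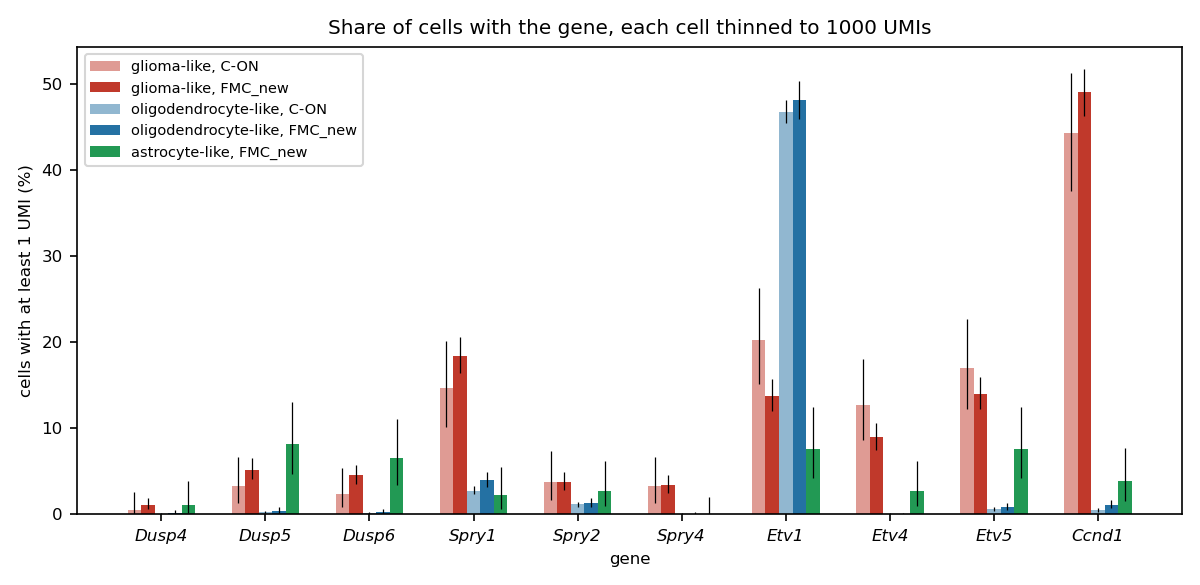
Share of cells with at least 1 UMI of each gene after thinning every cell to 1000 UMIs (bars from 0, with exact Clopper-Pearson 95% intervals), for glioma-like and oligodendrocyte-like cells of both libraries and astrocyte-like cells of FMC_new. Ccnd1 reaches 44.3% and 49.0% of glioma-like cells and Etv1 46.8% and 48.1% of oligodendrocyte-like cells.

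Single glioma-like cells often carried more than 1 of the 5 genes. At 1000 UMIs a cell, at least 1 of Spry1, Spry4, Etv4, Etv5 and Ccnd1 was found in 60.4% (53.5 to 67.0%) of glioma-like cells in C-ON and 64.1% (61.5 to 66.7%) in FMC_new. In oligodendrocyte-like cells this share was 3.77% and 5.64%, in T cell-like cells 3.95% and 6.47%, in microglia-like cells 15.6% and 13.5%, and in astrocyte-like cells of FMC_new 14.7%. At least 2 of the 5 genes were found in 26.4% and 24.4% of glioma-like cells, in 0.0188% (1 cell) and 0.196% (4 cells) of oligodendrocyte-like cells. Astrocyte-like cells of FMC_new had 3 such cells of 184. The 5 genes were grouped after their class levels had been seen.

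Within the glioma-like class, the larger cluster 9 held most of the signal. Ccnd1 was at 1000.1 CPM in C-ON and 1292 CPM in FMC_new in cluster 9, against 231 and 381 CPM in cluster 20. Spry1 was at 215 and 292 CPM against 60.3 and 84.6 CPM, and Etv5 at 210.1 and 176 CPM against 50.3 and 63.4 CPM. Etv4, Spry4 and Spry2 were higher in cluster 9 in both libraries as well, with 2.65-fold and 3.60-fold for Etv4. Dusp6 lay nearer, at 41.8 and 54.8 CPM in cluster 9 against 33.5 and 46.2 CPM, with overlapping intervals in each library. Dusp5 was higher in cluster 20 in both, at 43.6 and 63.8 CPM against 17.8 and 31.0 CPM, whereas Etv1 and Dusp4 differed in direction between the libraries. Since the clusters come from the same cells, this is a description without a test. Cluster 20 also held more of the 10 oligodendrocyte markers, 20507 and 9374 CPM against 3930 and 1151 CPM in cluster 9, and fewer of the 12 glioma markers, 4532 and 4981 CPM against 16492 and 14318 CPM. The 8 microglia markers summed to 449 and 1227 CPM in cluster 20, against 67.9 and 109 CPM in cluster 9. The 8 T cell markers were higher in cluster 20 as well (111 and 300 against 58.5 and 165 CPM). The 8 astrocyte markers were lower in it (231 and 401 against 1425 and 1053 CPM). How much these differences in cell content and in free RNA bear on the levels was not tested.

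**Figure D5:**
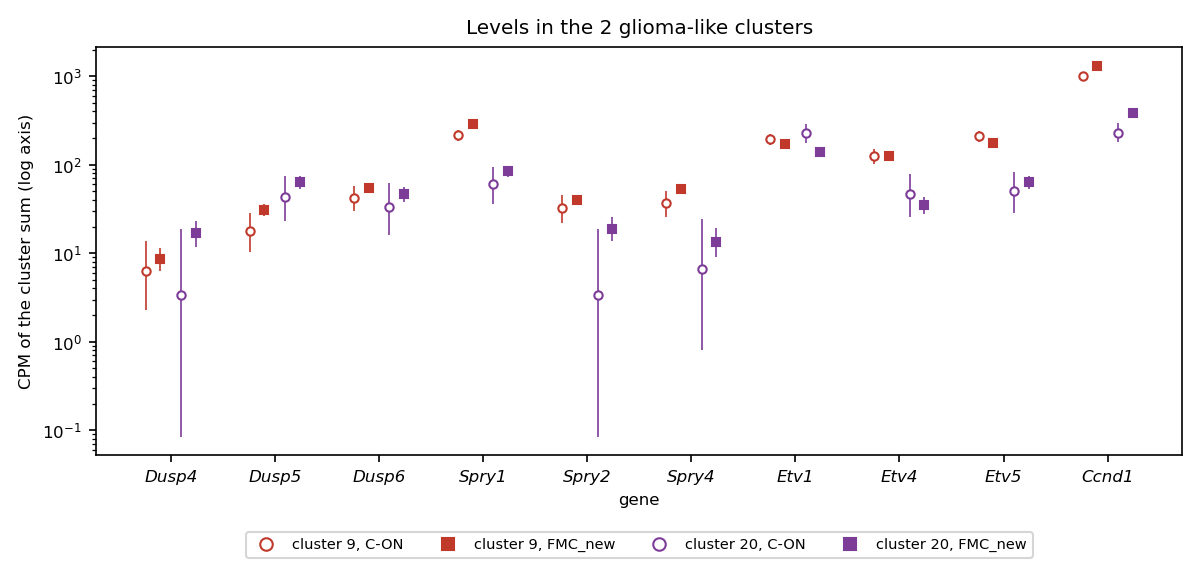
Level of each gene as CPM of the cluster sum (log axis) in the glioma-like clusters 9 and 20, open for C-ON and filled for FMC_new, with exact Poisson 95% intervals. Cluster 9 lies above cluster 20 for Spry1, Spry2, Spry4, Etv4, Etv5 and Ccnd1 in both libraries, and below it for Dusp5, while the Dusp6 intervals of the clusters overlap.

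Gpr17, a receptor of committed oligodendrocyte precursors, led cluster 20 against all other cells. Its level there (184 CPM in C-ON and 206 CPM in FMC_new) was no higher than in cluster 9 (206 and 211 CPM). Glioma-like cells with at least 2 Gpr17 UMIs (52 in C-ON and 313 in FMC_new) were set against those with none (113 and 854). Of the cells with Gpr17, 42 and 255 were in cluster 9, and of those without it 85 and 434. The split does not stand for the clusters. Cluster 9 still made up a larger part of the cells with Gpr17, mainly in FMC_new, so the arms also differ in cluster make-up. Of the 10 genes, none was higher and 1, Dusp5, was lower with Gpr17 (edgeR, 1.52% of 11517 genes higher and 4.38% lower). No gene was higher at an unadjusted p under 0.05 in edgeR (0 genes) or DESeq2 (0 genes), and 3 were lower in edgeR. Dusp5 stood at 19.97 and 25.7 CPM with Gpr17 and 23.7 and 48.7 CPM without (log2 change -0.93, SE 0.28, edgeR adjusted p = 0.0197). This call was lost with DESeq2, RLE size factors, library-size scaling, no library block, a limit of 1 Gpr17 UMI, and within cluster 9 alone. Ccnd1 stood at 667 and 711 CPM with Gpr17 and 838 and 1166 CPM without (log2 change -0.65, SE 0.22, edgeR adjusted p = 0.0565). Spry4 stood at 48.5 and 47.5 CPM against 19.0 and 35.4 CPM (log2 change 0.49, SE 0.25, edgeR adjusted p = 0.382). Having a Gpr17 UMI also depends on the depth of a cell, and the part of depth was not tested.

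Other genes of the pathway moved unevenly between glioma-like and oligodendrocyte-like cells. The counts in that comparison stand beside 31.6% of all genes tested that were higher and 29.0% that were lower, and those against astrocyte-like cells beside 7.35% and 8.09%. Of 8 other ERK output genes tested, 6 were higher and 1, Errfi1, a feedback inhibitor of the EGF receptor, was lower. Phlda1 stood at 265 and 377 CPM in glioma-like against 16.8 and 13.5 CPM in oligodendrocyte-like cells (log2 change 3.92, SE 0.25), Myc at 48.6 and 66.2 against 1.89 and 3.35 CPM (4.01, SE 0.20) and Ier3 at 138 and 216 against 1.71 and 3.35 CPM (5.69, SE 0.18). These 3 genes, with Egr1 and Fos, were also the 5 of 7 tested that were higher against astrocyte-like cells, where none was lower. All 4 of the other D cyclins and their kinases (Ccnd2, Ccnd3, Cdk4 and Cdk6) were higher against oligodendrocyte-like cells, and none of the 4 was called against astrocyte-like cells (Cdk4 1.00, Cdk6 -0.47 and Ccnd3 -0.28). Median log2 changes were 3.61 and 2.68 for the output genes and 2.12 and -0.02 for the D cyclins and kinases, against medians of all genes tested of -0.01 and 0.06.

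Of 9 other MAPK phosphatases, 4 were higher against oligodendrocyte-like cells (Dusp1, Dusp2, Dusp9 and Dusp14) and 4 lower (Dusp3, Dusp7, Dusp10 and Dusp16), with a median log2 change of -0.15. These counts are near the shares over all genes tested (31.6% higher and 29.0% lower). Dusp14 (2.81) and Dusp3 (-2.52) had the largest called values after Dusp9. Dusp9 had no UMI in oligodendrocyte-like cells and only 2 and 16 UMIs in glioma-like cells. Against astrocyte-like cells, Dusp8 was higher (2.19, SE 0.81) and Dusp14 lower (-1.60, SE 0.56), while Dusp16 (1.04) was not called and the median was 0.30. Of 5 other Sprouty-related inhibitors, Spred2 (1.72), Spred3 (4.68) and Il17rd (5.41) were higher against oligodendrocyte-like cells. None was called against astrocyte-like cells, where Il17rd (-0.98), Spred2 (-0.57) and Spred1 (0.25) had the largest values, and the medians were 1.72 and -0.23. Il17rd, which restrains FGF receptor signalling, stood at 7.17 and 11.2 CPM in glioma-like and 15.2 CPM (1 UMI) and 22.4 CPM in astrocyte-like cells. Of 8 other Ets factors, 5 were higher (Etv3, Etv6, Ets1, Ets2 and Elk3, with 3.65 for Ets2) and Elk4 lower against oligodendrocyte-like cells. None was called against astrocyte-like cells (Etv6 1.28, Elk1 1.19 and Elk3 -1.09), and the medians were 1.61 and 0.55. With Gpr17 against without, these 6 other pathway lists held 1 call higher (Dusp7) and 1 lower (Dusp2). Over all genes tested in that comparison, 1.52% were higher and 4.38% lower.

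The kinases of the cascade were also read. Of 7 tested, none was higher in glioma-like than in oligodendrocyte-like cells and 3 were lower (Map2k1, Map2k2 and Mapk3), and none was called against astrocyte-like cells. Of all genes tested, 29.0% were lower in the first comparison, so 3 of 7 is not far from that share. The median log2 change of the kinases was -0.34 in the first comparison and 0.16 in the second, against -0.01 and 0.06 over all genes tested, where Mapk3 (-0.65) and Map2k2 (0.32) were among the uncalled values. Mapk3, which encodes ERK1, stood at 92.4 and 50.8 CPM in glioma-like and 351 and 317 CPM in oligodendrocyte-like cells (log2 change -2.77, SE 0.24, edgeR adjusted p = 1.4e-06). Levels of kinase RNA do not measure kinase activity.

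Genes known to rise during tissue dissociation also moved with the glioma-like class. Of 9 listed, 7 were higher against oligodendrocyte-like cells (31.6% of all genes tested) and 5 against astrocyte-like cells (7.35% of all genes tested), and Fos and Egr1 are in both this list and the output list. Fos stood at 2606 and 3169 CPM in glioma-like, 148 and 297 CPM in oligodendrocyte-like, and 0 and 997 CPM in astrocyte-like cells. Microglia-like cells held 3567 and 4056 CPM of Fos. The part of dissociation in the levels of the 10 genes was not tested.

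Over the 27 class and library sums, the 10 genes did not share a single pattern. The highest Pearson correlation of log2(CPM + 1) between members was 0.74, for Etv4 and Etv5, and Etv4 correlated at 0.69 with Spry4, at 0.67 with Spry1 and at 0.63 with Ccnd1. Etv1 and Dusp4 had the lowest, -0.65. Among all 13223 genes compared, the 3 most like Etv4 were Rlbp1 (0.94), Hey2 (0.94) and Irx2 (0.93). Those most like Spry4 were BC037039 (0.96), Slc1a1 (0.92) and Tmem35a (0.91), and those most like Ccnd1 were Chst7 (0.92), Eps8 (0.87) and Pxdc1 (0.83). Etv1 ran with Arrdc2 (0.95), St18 (0.93) and Tspan2 (0.93), and Etv5 with Nav2 (0.87), Itga9 (0.86) and Rbm26 (0.83). Dusp5 was most like Pkp3 (0.95), Stat4 (0.94) and Pik3r5 (0.93), and Dusp6 most like Slfn9 (0.89), Frrs1 (0.88) and Sertad1 (0.87). The values for Spry1 were 0.86 with Chst2, 0.85 with Ifi27 and 0.83 with Itgav, for Spry2 0.84 with Ss18, 0.82 with Cenpq and 0.82 with Fam102a, and for Dusp4 0.76 with Sik1, 0.73 with Gm49980 and 0.72 with Camk2b. These correlations describe sums that share 2 libraries, and no p-value is attached to them.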

How the data were processed

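Single-cell 5′ libraries of Nf1-OPG optic nerves were analysed. The authors deposited raw UMI counts for the barcodes called as cells, aligned to mm10 (GRCm38). The file headers name Cell Ranger 7.2.0, a later version than the methods. Use of intronic reads is not given in the sources used here. Cells with 500 to 5000 genes, 500 to 20000 UMIs and up to 5% mitochondrial UMIs were kept, and Seurat 5.3.0 (R 4.3.3) was used with 2000 variable features, CCA integration, 30 components and a resolution of 0.8. Before clustering, 24 of the pathway and dissociation genes were removed from the variable features. Clusters needed at least 3 markers of a class, and 8 clusters (2674 cells) stayed unnamed. A rule leaving a cluster led by lymphocyte genes unnamed was added after its leading genes were seen. Scrublet marked 1 of 25652 cells, so it did not work here and doublets were not removed.

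UMIs were summed per class and library (at least 10 cells a sum) and tested with edgeR 4.0.16 (glmQLFTest, TMM scaling, low counts filtered, library as a block, Benjamini-Hochberg adjustment over all genes tested). Each library gives both sums of a comparison, so the sums are paired by library. The fit leaves 1 residual degree of freedom and borrows the spread across genes. The weight of the borrowed spread was 10.4 degrees of freedom against oligodendrocyte-like cells and infinite in the other comparisons. Where it was infinite, a gene's own spread between the libraries had no weight in its p-value. DESeq2 1.42.0, other scalings, no filter, no block, other classes and leaving out a library were alternatives. On simulated counts of the glioma-like and oligodendrocyte-like sums (14419 genes), 96% of genes changed by 2 log2 units and 100% of those changed by 3 were called. On the glioma-like and astrocyte-like sums (10644 genes) these shares were 67.3% and 99%. Python 3.11.15, numpy 2.4.6, scipy 1.17.1 and pandas 2.3.3 were used for levels. Gene positions are from GENCODE vM21 and matched all 10 genes by identifier. The genes and lists were chosen with earlier results of these data known. All 10 genes are named. Of other pathway lists, the genes called in both main comparisons or with the 3 largest changes were to be named, as were the 3 genes most like each member. Members of lists named outside this rule were chosen after their values were seen. The values of 1 gene that this rule names among the cascade kinases are not reported here.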

Additional observations from a re-analysis of the deposited data

How the results depend on the processing

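The count of the 10 genes called against oligodendrocyte-like cells (10) was 9 or 10 under 9 of 10 alternatives. Leaving out the 1 cell that Scrublet marked changed no value here and is not counted. With the marker gate, 5 were called, and Dusp5 (-0.020) and Spry2 (-0.91) turned their direction without a call. Library-size scaling moved the median log2 change of all genes from -0.01 to 0.46 and its calls to 6567 higher and 2284 lower, from 4734 and 4342, and all 10 genes kept their direction. Against astrocyte-like cells, 4 or 5 genes were called under all 8 alternatives, and uncalled values near 0 changed sign: Dusp5 to -0.0032 (library size), -0.22 (no replicate block), -0.29 (resolution 0.4) and -0.063 (no Mog or Mag cells), Dusp6 to -0.066 (no replicate block) and Dusp4 to 0.0095 (no filter). The marker gate left no C-ON astrocyte-like sum and was not run there. With Gpr17 against without, the count of 1 became 0 with DESeq2, RLE, library size, no replicate block, a limit of 1 UMI and cluster 9 alone, and 2 without a filter, which added Ccnd1 (edgeR adjusted p = 0.0466). Spry1 turned to 0.0047 (library size) and 0.13 (1 UMI), Etv4 to 0.052 and 0.12 in the same fits, and Etv1 to 0.14 (cluster 9 alone). Over all genes that comparison called 175 higher and 505 lower with the block and 1 and 0 without it, 7 and 27 with DESeq2, 32 and 161 at 1 UMI, and 11 and 56 in cluster 9. Without the replicate block, 10 and 4 genes were called in the other comparisons. The cause of these changes was not tested.

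With each library alone, values have no test. All 10 genes called against oligodendrocyte-like cells kept their direction. Of the 5 called against astrocyte-like cells, all did so in FMC_new alone, and in C-ON alone, with 19 astrocyte-like cells, Spry4 gives no direction. The 5 genes highest in glioma-like cells, by level and by share, were the same in each library and under every alternative for levels and thinning. At 500 UMIs a cell the top place of Spry4 in C-ON rests on 1 UMI.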

Other observations

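Levels in clusters that took no class name were read as well. Cluster 27, found almost only in FMC_new (289 cells) and led by Mia, Folr1 and Cyp2f2, held 175 CPM of Ccnd1, 120 CPM of Dusp5, 90.4 CPM of Spry1 and 17.4 CPM of Spry4 there. Its Spry4 level was below that of glioma-like cells in FMC_new (42.3 CPM), and its Etv4 level was 5.0 CPM against 100.1 CPM.

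The cycling cluster 25, led by Birc5, Pclaf and Mki67, held 16.6 CPM of Ccnd1 in C-ON and 47.9 CPM in FMC_new, far below the 817 and 1038 CPM of glioma-like cells. Dusp5 stood at 187 and 209 CPM and Dusp4 at 64.5 and 72.0 CPM in it, and all 8 T cell markers counted for the cluster. Etv4 stood at 4.2 CPM in C-ON (2 UMIs) and 0.43 CPM in FMC_new (1 UMI) in this cluster.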
